A study of Mus musculus with 12 samples.

Results

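Hearts of mice given busulfan alone were compared with hearts of untreated controls, over all genes and between 3 libraries of each group, chosen by their treatment labels. These are 6 of the 12 libraries of a study of busulfan damage to the heart and of FMT, an abbreviation the labels do not spell out. All mice were of the outbred ICR stock and 10 weeks old. The control group was labelled control only, and the busulfan group received 20 mg/kg. The other 6 libraries came from busulfan-treated mice with control-FMT or AOS-FMT, 3 of each, with AOS at 10 mg/kg in the label of the latter. They entered the fit to help estimate the spread between replicates. Sex, the time between drug and collection, and how much of the atria was kept with a heart are not given in the labels. They also do not say that replicates are separate animals. Each p-value sets a difference between groups against the spread between libraries, and that spread may be partly technical.

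Busulfan is an alkylating drug that crosslinks DNA and empties the bone marrow, so it is used before stem cell transplantation. DNA damage stabilises the transcription factor p53, which switches on genes for cell cycle arrest (Cdkn1a), death (Bax, Bbc3) and its own removal (Mdm2). The heart holds muscle cells that no longer divide, with endothelium, pericytes, fibroblasts and macrophages around them. Atrial and ventricular muscle use different light chains and hormones, so RNA from a whole heart shifts with the share of atrium in it. In such bulk RNA, fewer cells of a type and less RNA per cell cannot be told apart.

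Library totals ran from 12132064 to 12915596 estimated counts in the 6 libraries compared, and 13489 genes passed the filter on low counts. Heart muscle RNA was plain in all 6: the main cardiac myosin gene Myh6 made up from 3.70% to 6.90% of the counts. Levels below are counts scaled by library size and TMM (CPM), and a gene was called at an adjusted p under 0.05 in edgeR's quasi-likelihood test, with Benjamini-Hochberg adjustment over all genes tested.

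The atrial content of the libraries differed widely and moved with the treatment label. Sln, which codes for sarcolipin, an inhibitor of the calcium pump in atrial muscle, stood at 124, 831 and 1117 CPM in control 1, 2 and 3. In busulfan 1, 2 and 3 it stood at 1.74, 41.9 and 148 CPM. Myl7, the atrial regulatory light chain, followed the same order, with 117, 1437 and 1577 CPM in the controls and 1.39, 50.1 and 199 CPM after busulfan. Only control 1 lay among the busulfan libraries. An atrial score, taken over Sln, Myl7, Myl4 and Bmp10 as the average of log2(CPM + 0.5), was 6.08, 10.3 and 9.88 in the controls and 0.941, 4.37 and 7.30 after busulfan. The groups overlapped in it, since busulfan 3 lay above control 1. Neither Sln, with a log2 fold change of -3.43 ± 1.87 (SE) and an adjusted p of 0.543, nor Myl7, with -3.64 ± 1.92 and 0.527, was called. Nppa, the atrial natriuretic peptide, ran from 1434 to 12084 CPM in the controls and from 251 to 2217 CPM after busulfan. Myl2, the ventricular light chain, was at 10021, 4634 and 6409 CPM in the controls and at 10006, 9613 and 8356 CPM after busulfan. Its lowest values were in the 2 controls richest in atrial transcripts. With the atrial score as a covariate the log2 fold change of Nppa was 0.14. Sln and Myl7 are part of that score, so their values in that fit say nothing further. The part of atrial content in the results below was not tested. Beside the gene lists stand 2 values from other views of the data. The first is the fit with the atrial score as a covariate, whose slope comes from all 12 libraries. In that fit 522 genes were higher (3.87%) and 332 lower (2.46%) at an unadjusted p under 0.05, and with the linear atrial sum in its place 616 (4.57%) and 459 (3.4%). The second is the log2 ratio of busulfan 3 to control 1, the pair in which the busulfan library is the richer in atrial transcripts. That ratio has 1 library on each side and carries no test, and the pair was chosen after the data were seen. Of all genes, 6884 had a ratio above 0 on the log2 scale and 6597 below, with a median of 0.0084. This pair also differs by transcript length. The median centred log2 CPM of the shortest genes, 1 of 5 parts of equal size, was 0.175 in control 1 and -0.0732 in busulfan 3, and that of the longest was -0.136 and 0.0610.

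**Figure D1:**
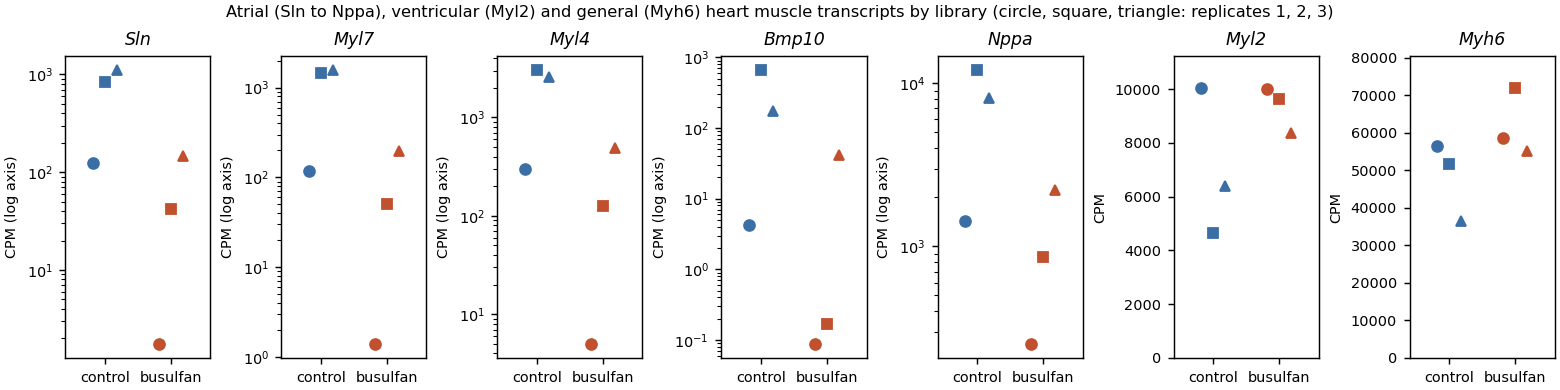
Levels of 5 atrial transcripts (Sln to Nppa, log axes), the ventricular Myl2 and the general cardiac Myh6 (linear axes) in CPM, 1 point for each library of the control and busulfan groups. Sln runs from 124 to 1117 CPM in the controls and from 1.74 to 148 CPM after busulfan, with control 1 among the busulfan libraries.

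Of the 13489 genes, 8 were called higher after busulfan (0.0593%) and 0 lower. They hold 2 genes of the p53 response, a cyclin, a pericyte proteoglycan, an enzyme of glycolysis and 3 genes of membrane or matrix proteins. At an unadjusted p under 0.05, 747 genes stood higher (5.54%) and 780 lower (5.78%). In 1044 genes (7.74%) the busulfan libraries all lay above the controls, and in 861 (6.38%) all below. The median log2 fold change of all genes was -0.01.

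Cdkn1a, which codes for p21, the inhibitor of cyclin-dependent kinases that p53 induces, stood at 41.4, 42.7 and 31.3 CPM in the controls and at 65.0, 80.2 and 72.6 CPM after busulfan. The groups did not overlap, and the log2 fold change was 0.92 ± 0.13 (SE, adjusted p = 0.0247, edgeR). Zmat3, another p53 target, which codes for a zinc finger protein that binds RNA, was at 6.93, 8.51 and 8.73 CPM in the controls and at 13.9, 16.5 and 15.2 CPM after busulfan. It rose by 0.91 ± 0.14 (adjusted p = 0.0419, edgeR). Ccnd1 codes for cyclin D1, the partner of CDK4 and CDK6 in early cell cycle entry. Its levels were 40.8, 41.3 and 32.8 CPM in the controls and 71.8, 83.5 and 59.8 CPM after busulfan, a rise of 0.91 ± 0.14 (adjusted p = 0.0419, edgeR). For all 3 genes the lowest busulfan library lay above the highest control.

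Cspg4, which codes for NG2, the proteoglycan used to recognise pericytes, had 21.7, 20.5 and 21.8 CPM in the controls and 31.9, 37.1 and 37.9 CPM after busulfan. Its log2 fold change of 0.74 ± 0.10 (adjusted p = 0.0247, edgeR) was the smallest of the 8. Papln, which codes for papilin, an extracellular matrix glycoprotein, had 14.3, 15.4 and 14.4 CPM against 30.5, 30.5 and 27.4 CPM, and rose by 1.00 ± 0.14 (adjusted p = 0.0247, edgeR). Its mean was 14.7 ± 0.633 CPM in the controls and 29.5 ± 1.82 CPM after busulfan (SD, n = 3). Rhbdf2, which codes for iRhom2, a membrane protein that the sheddase ADAM17 needs to mature, stood at 14, 16.2 and 14.5 CPM in the controls and at 25.3, 28.3 and 25.4 CPM after busulfan. It rose by 0.82 ± 0.11 (adjusted p = 0.0247, edgeR).

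Pfkp, the platelet-type isoform of phosphofructokinase, the committing enzyme of glycolysis, was at 73.9, 66.3 and 84.2 CPM in the controls and at 143, 122 and 147 CPM after busulfan. It rose by 0.88 ± 0.13 (adjusted p = 0.0337, edgeR). Sez6l2, which codes for a membrane protein best known from the brain, showed the largest change of the 8, from 7.36, 8.43 and 9.36 CPM to 20.1, 18.3 and 17.8 CPM. It rose by 1.16 ± 0.18 (adjusted p = 0.0419, edgeR). None of the 8 overlapped between the groups.

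**Figure D2:**
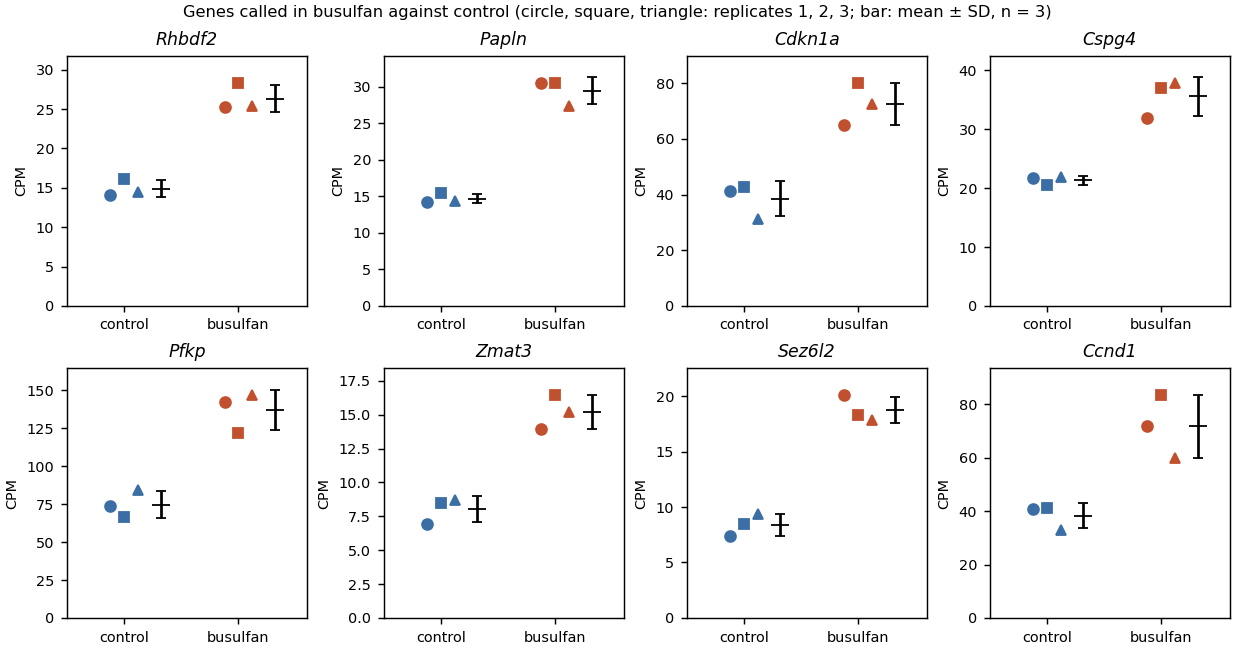
CPM of the 8 called genes in each library, 1 panel for each gene, with the mean and SD over 3 libraries at the right of each group. In every panel the lowest busulfan library lies above the highest control, from Cspg4 with means of 21.3 and 35.6 CPM to Sez6l2 with 8.38 and 18.8 CPM.

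The fold changes of these 8 genes were followed over the other fits. In busulfan 3 over control 1 the log2 ratio was 0.80 for Cdkn1a, 1.08 for Zmat3, 0.79 for Cspg4 and 0.54 for Ccnd1, whose value in the fit was 0.91. It was 0.92 for Papln, 0.83 for Rhbdf2, 0.99 for Pfkp and 1.22 for Sez6l2. With the log2 atrial score as a covariate the fold changes ran from 0.79 for Ccnd1 and Pfkp to 1.16 for Sez6l2, and none of the 8 stayed called (adjusted p from 0.115 to 0.515, edgeR). In DESeq2 all 8 were among 119 genes called, 61 higher and 58 lower. With the 6 libraries alone edgeR called 0 genes, with 611 higher and 662 lower at an unadjusted p under 0.05. Single libraries also decided calls: 0 genes were called without control 3, without busulfan 1, without busulfan 2 or without the first control-FMT library, and 14 without control 2, which shared 4 with the 8. Without control 1, 7 were called, 3 higher and 4 lower, and only Cdkn1a was among the 8. Without busulfan 3, 6 were called, which shared 3. Without the third control-FMT library or the third AOS-FMT library 5 were called. Over the 25 alternative fits each of the 8 kept a positive log2 fold change, between 0.58 and 1.23.

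The 6 FMT libraries took no part in choosing the groups compared, but they share the drug and the controls, and they helped set the spread. Each of the 8 genes lay above the highest control in 6 of these 6 libraries, which 351 of all genes did (2.6%). That share is over all genes, while the 8 had been chosen for high values against these same controls. Genes lower after busulfan were not counted in this way. Cdkn1a ran from 63.3 to 88.7 CPM in the FMT libraries, with a median of 72.3, against at most 42.7 in the controls. Pfkp came closest to the controls, with its lowest FMT library at 84.5 CPM beside a control at 84.2. The labels do not give the busulfan dose of the FMT groups.

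The promoters of the called genes are shown so that the p53 sequences before Cdkn1a can be seen beside the other promoters. They run from 250 bases before to 50 bases after a start site, from RefSeq on GRCm38.p6, and 4 of the 8 genes had an entry. Capitals mark matches on either strand to 6 motifs: the p53 half-site, CCAAT, the GC box GGGCGG, the TATA box TATAAA, the E box CACGTG and the AP-1 site TGANTCA. No match overlapped another.
Cdkn1a, upstream start, chr17:29090729-29091028, plus strand: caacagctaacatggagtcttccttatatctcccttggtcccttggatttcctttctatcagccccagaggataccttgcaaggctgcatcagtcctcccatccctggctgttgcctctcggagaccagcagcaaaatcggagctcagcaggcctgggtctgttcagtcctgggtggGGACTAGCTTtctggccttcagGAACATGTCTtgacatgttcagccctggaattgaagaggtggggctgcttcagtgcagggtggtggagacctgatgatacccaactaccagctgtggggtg
Cdkn1a, downstream start, chr17:29093519-29093818, plus strand: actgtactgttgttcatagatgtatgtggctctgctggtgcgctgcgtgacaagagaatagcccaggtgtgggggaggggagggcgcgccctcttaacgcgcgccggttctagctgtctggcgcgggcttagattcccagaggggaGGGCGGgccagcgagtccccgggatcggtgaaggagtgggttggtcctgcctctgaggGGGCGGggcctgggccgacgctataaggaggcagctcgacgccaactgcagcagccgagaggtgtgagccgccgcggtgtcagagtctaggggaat
Papln, chr12:83763384-83763683, plus strand: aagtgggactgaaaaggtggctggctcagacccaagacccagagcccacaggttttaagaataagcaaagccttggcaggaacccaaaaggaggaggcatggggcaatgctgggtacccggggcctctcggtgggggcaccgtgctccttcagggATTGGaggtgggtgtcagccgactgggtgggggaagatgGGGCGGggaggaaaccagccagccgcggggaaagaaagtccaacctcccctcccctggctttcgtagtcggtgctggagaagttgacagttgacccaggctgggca
Cspg4, chr9:56864854-56865153, plus strand: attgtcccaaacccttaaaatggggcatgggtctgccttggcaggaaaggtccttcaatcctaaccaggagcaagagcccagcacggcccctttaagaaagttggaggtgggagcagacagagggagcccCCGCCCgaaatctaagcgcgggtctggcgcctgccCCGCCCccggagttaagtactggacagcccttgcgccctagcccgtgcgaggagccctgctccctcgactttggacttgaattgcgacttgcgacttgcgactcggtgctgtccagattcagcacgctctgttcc
Pfkp, chr13:6648722-6649021, minus strand: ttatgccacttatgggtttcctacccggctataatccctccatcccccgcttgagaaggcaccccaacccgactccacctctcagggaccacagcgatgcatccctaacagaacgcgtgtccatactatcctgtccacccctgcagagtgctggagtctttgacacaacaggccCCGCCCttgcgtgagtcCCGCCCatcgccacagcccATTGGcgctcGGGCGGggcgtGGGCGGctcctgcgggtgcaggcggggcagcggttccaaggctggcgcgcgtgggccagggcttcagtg

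The upstream Cdkn1a promoter held 2 matches to the p53 half-site, GGACTAGCTT at -73 to -64 and GAACATGTCT at -51 to -42 from the start site. Such a match stood in 8.4% of the 32851 promoters in the table. Papln held 1 CCAAT motif and 1 GC box. Cspg4 held 2 GC boxes, the downstream Cdkn1a promoter 2 and Pfkp 4 beside 1 CCAAT motif. GC boxes stood in 35.7% of all promoters and CCAAT motifs in 37.4%. No TATA box, E box or AP-1 site, found in 13.6%, 7.2% and 7.8% of all promoters, was in these windows. A match describes the letters only.

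Among p53 targets, counted with Cdkn1a and Zmat3, the values past the unadjusted threshold were all higher. Of 42 listed, 41 were tested, 2 were called, and 14 were higher and 0 lower at an unadjusted p under 0.05. The 14 made 34.1%, beside 5.54% of all genes. The list's median log2 fold change was 0.25, beside -0.01 for all genes. It was 0.31 with the atrial score as a covariate, where 11 were higher and 0 lower, beside 3.87% and 2.46% of all genes. With the linear atrial sum 13 were higher and 3 lower, beside 4.57% and 3.4% of all genes. The median was 0.19 in busulfan 3 over control 1. Eda2r, a receptor of the tumour necrosis factor family, stood at 2.31, 3.42 and 3.25 CPM in the controls and at 6.01, 8.15 and 5.92 CPM after busulfan, a log2 fold change of 1.15 ± 0.23 that was not called (adjusted p = 0.164, edgeR). Gdf15, a secreted stress hormone, stood at 4.62, 2.66 and 2.30 CPM against 5.40, 8.23 and 8.71 CPM (1.23 ± 0.27, adjusted p = 0.203, edgeR). Eda2r met a naming rule that required no overlap between the groups. Gdf15 did not overlap either, as in 7.74% of all genes on the higher side.

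The death genes of the pathway gave smaller values. Bax, which opens the mitochondrial outer membrane, was at 23.5, 14 and 22.4 CPM in the controls and at 25.4, 28.2 and 27.3 CPM after busulfan (0.43 ± 0.18, unadjusted p = 0.0349, adjusted p = 0.410, edgeR). Bbc3, which codes for the BH3-only protein PUMA, had 7.19, 7.52 and 7.54 CPM against 10.2, 12.5 and 8.71 CPM (0.49 ± 0.19, adjusted p = 0.369, edgeR). Over the BCL2 family as a whole, 2 of 18 genes were higher (11.1%) and 1 lower (5.56%) at an unadjusted p under 0.05. Of all genes 5.54% were higher and 5.78% lower. The family's median was 0.00. It was -0.01 with the atrial score as a covariate and -0.02 in busulfan 3 over control 1. Mdm2, the ubiquitin ligase that p53 induces against itself, stood at 59.9, 66.1 and 58.3 CPM in the controls and at 65.4, 59.8 and 68.3 CPM after busulfan. The groups overlapped, and the log2 fold change of 0.07 ± 0.10 turned below 0 in 1 alternative fit. Trp53 itself, the p53 gene, was at 20.7, 29.0 and 28.7 CPM against 31.8, 31.2 and 29.9 CPM (0.24 ± 0.13, adjusted p = 0.501, edgeR).

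Genes that repair crosslinks or signal the damage showed little. Of 37 tested, 1 was higher (2.7%, beside 5.54% of all genes) and 0 lower at an unadjusted p under 0.05. The median was -0.02, or 0.03 both with the atrial score and in busulfan 3 over control 1. The 1 was Ercc1, part of the nuclease that unhooks crosslinks, at 19.0, 16.3 and 14.8 CPM in the controls and 20.6, 23.2 and 23.2 CPM after busulfan (0.42 ± 0.13, adjusted p = 0.299, edgeR). Glutathione transferases attach glutathione to busulfan, mainly in the liver. Of 20 tested, 1 was higher (5%) and 4 lower (20%) at that level, beside 5.54% and 5.78% of all genes. Their median was -0.03, or -0.16 with the atrial score and -0.17 in busulfan 3 over control 1. Gstt1, of the theta class, stood at 21.1, 27.6 and 23.3 CPM in the controls and at 8.01, 8.82 and 14.8 CPM after busulfan (-1.18 ± 0.27, adjusted p = 0.229, edgeR). Mgst1, a microsomal transferase, stood at 42.5, 38.8 and 53.8 CPM against 24.4, 24.2 and 31.7 CPM (-0.75 ± 0.18, adjusted p = 0.229, edgeR). The gene higher in this list was Gstp2, whose near copy Gstp1 can share its reads, so its value is uncertain. NRF2 targets, the antioxidant genes, gave 0 higher and 1 lower (4.76%) of 21, with a median of 0.02.

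Proliferation genes, which mark S phase and mitosis, were low in all libraries, and most fold changes lay above 0. Of 35 tested, 6 were higher (17.1%, beside 5.54% of all genes) and 0 lower at an unadjusted p under 0.05. Among them 0 were called, and the list's median was 0.49. It was 0.58 with the atrial score as a covariate and 0.12 in busulfan 3 over control 1. The list summed to 175, 179 and 185 CPM in the controls and to 201, 267 and 174 CPM after busulfan, so busulfan 3 lay below every control. Mki67, the gene of the Ki-67 antigen, had 10.4, 10.3 and 8.25 CPM in the controls and 17.1, 20.1 and 12.8 CPM after busulfan (0.78 ± 0.21, adjusted p = 0.272, edgeR). Plk1, a mitotic kinase, had 0.942, 0.912 and 0.555 CPM against 1.83, 2.46 and 1.44 CPM (1.24 ± 0.38, adjusted p = 0.303, edgeR). Busulfan 2 was the highest library for both, and without it the list's median was 0.23. Among 17 G1 cyclins and kinase inhibitors the called Ccnd1 and Cdkn1a were the 2 higher genes (11.8%), and 0 were lower.

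Genes of vessel walls and of the basement membrane, the sheet of collagen IV, laminin and perlecan under endothelium and around muscle cells, made up the next group of higher values. Of 19 basement membrane genes, Papln was called, and 6 were higher and 0 lower at an unadjusted p under 0.05. The 6 made 31.6%, beside 5.54% of all genes, and the list's median was 0.21. With the atrial score as a covariate 9 were higher, beside 3.87% of all genes, and the median was 0.32. In busulfan 3 over control 1 all 19 had a log2 ratio above 0, with a median of 0.31. Their transcripts are long, with a median of 6536 bases beside 3191 for all genes, and long transcripts stood higher in that pair. Hspg2, which codes for perlecan, was at 358, 479 and 420 CPM in the controls and at 647, 717 and 640 CPM after busulfan (0.67 ± 0.13, adjusted p = 0.164, edgeR). Col4a2, a collagen IV chain, was at 407, 456 and 339 CPM against 676, 666 and 546 CPM (0.65 ± 0.14, adjusted p = 0.174, edgeR). Lama5, a laminin chain, was at 69.2, 53.3 and 67.3 CPM against 97.2, 115 and 110 CPM (0.77 ± 0.16, adjusted p = 0.171, edgeR). None of these 3 was called. Hspg2 and Lama5 met a naming rule that required no overlap between the groups. Col4a2 did not overlap either, as in 7.74% of all genes on the higher side. Without control 1 the list's median was 0.06.

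Pericyte markers gave 5 higher and 0 lower of 15, or 33.3% higher beside 5.54% of all genes. Their median was 0.16, or 0.10 with the atrial score as a covariate and -0.08 in busulfan 3 over control 1. Apart from Cspg4, Notch3, the receptor that maintains mural cells, had 42.7, 46.9 and 45.1 CPM in the controls and 52.5, 59.1 and 70.3 CPM after busulfan (0.43 ± 0.12, adjusted p = 0.292, edgeR). Pdgfrb, the growth factor receptor used most often to define pericytes, stood at 112, 115 and 130 CPM against 120, 118 and 123 CPM, with a log2 fold change of 0.01 ± 0.09 whose sign differed between fits. Without control 2 the median of the list was 0.06.

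Endothelial markers were split, with 4 higher (20%) and 3 lower (15%) of 20, beside 5.54% and 5.78% of all genes. Their median was 0.11, or 0.02 with the atrial score and -0.02 in busulfan 3 over control 1. Cdh5, the VE-cadherin of endothelial junctions, had 230, 191 and 203 CPM in the controls and 326, 337 and 255 CPM after busulfan (0.56 ± 0.13, adjusted p = 0.229, edgeR). Tek, which codes for the angiopoietin receptor TIE2, had 82.8, 108 and 94.8 CPM against 66.6, 63.6 and 67.0 CPM (-0.53 ± 0.14, adjusted p = 0.246, edgeR). Emcn, the sialoglycoprotein endomucin, had 95, 122 and 119 CPM against 80.2, 90.2 and 78.1 CPM (-0.43 ± 0.15, adjusted p = 0.341, edgeR). All 3 were without overlap, in opposite directions, so the list as a whole had no common direction. Of all genes 7.74% were without overlap on the higher side and 6.38% on the lower. Of 16 smooth muscle genes, 2 were higher (12.5%) and 0 lower, and the median of 0.18 was 0.49 with the atrial score. It was 0.23 in busulfan 3 over control 1. Of the smooth muscle genes, Mylk, the myosin light chain kinase, stood at 23.7, 24.7 and 25.7 CPM against 33.4, 37.5 and 32.6 CPM (0.48 ± 0.11, adjusted p = 0.229, edgeR).

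Transcript GC content moved with the treatment label, and the share of genes past the unadjusted threshold also differed by transcript length. Genes were split by transcript GC into 5 parts of equal size. Among those of the highest part (56.0% to 72.8%), 14.4% were higher and 2.76% lower at an unadjusted p under 0.05. In the lowest part (32.6% to 44.3%) the shares were 1.55% and 8.23%. The difference in median centred log2 CPM between the highest and the lowest part was 0.0157, -0.163 and -0.127 in control 1, 2 and 3 and 0.115, 0.121 and 0.0405 in the busulfan libraries, which all lay above the controls. Papln had a transcript GC of 60.8%, Cspg4 59.2%, Rhbdf2 58.7% and Sez6l2 58.6%, beside a median of 50.3% for all genes. Cdkn1a had 54.4%, Ccnd1 50.9%, Pfkp 48.9% and Zmat3 47.6%. With the trends of each library on GC and length removed, an alternative chosen after the data were seen, 3 genes were called: Cdkn1a (adjusted p = 0.0459), Zmat3 (0.0459) and Rhbdf2 (0.0490), all by edgeR. The p53 list then had a median of 0.29 with 13 higher and 0 lower. The median of the basement membrane list was 0.10 with 5 higher and that of the pericytes 0.24 with 4 higher. By length, the shortest of 5 equal parts, up to 1821 bases, had 2.26% higher and 7.96% lower, and the longest, from 5191 bases, 7.66% and 3.74%. The longest part had a median centred log2 CPM of -0.136, 0.156 and -0.0568 in the controls and of -0.0289, 0.0108 and 0.0610 after busulfan, so the groups overlapped. What the GC and length differences come from was not tested.

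**Figure D3:**
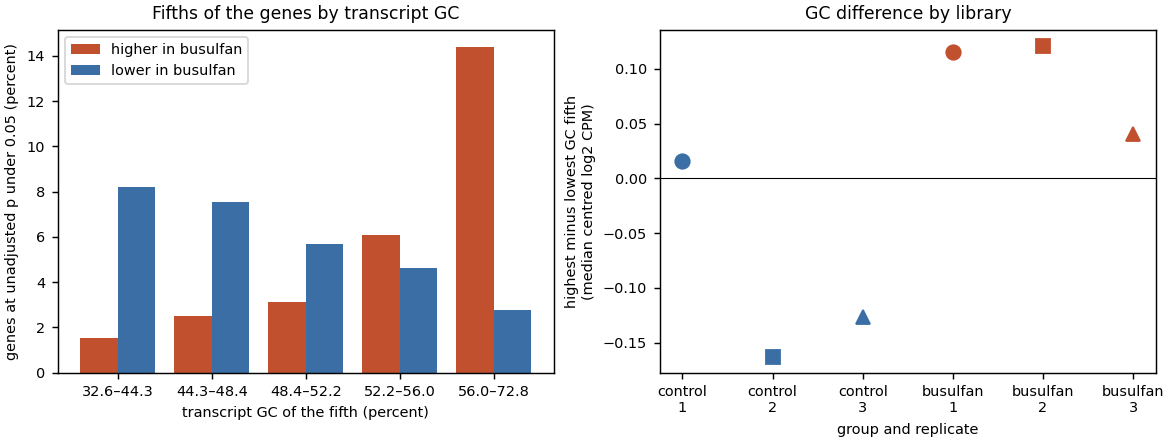
Left, the percent of genes, split into 5 equal parts by transcript GC, that were higher or lower in busulfan at an unadjusted p under 0.05. Right, the difference in median centred log2 CPM between the parts of highest and lowest GC in each of the 6 libraries, from -0.163 to 0.0157 in the controls and from 0.0405 to 0.121 after busulfan.

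On the lower side no gene was called by edgeR in the main fit. Some alternative edgeR fits called lower genes: 4 without control 1, 5 without control 2 and 2 with the replicate number as a block. Without control-FMT 2, AOS-FMT 1 or AOS-FMT 2 they called 1, 3 and 2 lower. The remaining edgeR fits called 0 lower. In the main fit the lowest adjusted p on this side belonged to Hpgd, the dehydrogenase that inactivates prostaglandins. It stood at 18.9, 25.7 and 27.9 CPM in the controls and at 10.3, 12 and 11.9 CPM after busulfan (-1.09 ± 0.19, adjusted p = 0.0985, edgeR). Prorsd1 followed, with 13.7, 13 and 15.1 CPM against 8.62, 8.65 and 7.87 CPM (-0.73 ± 0.13, adjusted p = 0.107, edgeR). The interferon-inducible Ifi27 stood at 104, 104 and 86.3 CPM against 60.7, 69.3 and 57.2 CPM (-0.65 ± 0.14, adjusted p = 0.171, edgeR). These 3 were named by a rule that required no overlap between the groups, so busulfan 3 had to lie below control 1. The log2 ratios of that pair were -0.64, -0.76 and -0.85.

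Platelet genes stood lower in every tested member. Of 15 listed, 9 passed the filter, with a median of -2.26. Of these, 9 of 9 were lower at an unadjusted p under 0.05, beside 5.78% of all genes. The other 6 were too low to test, and a gene that passed through high controls alone had to lie lower after busulfan, so the count is a description. Pf4, platelet factor 4, stood at 19.9, 32.7 and 30.3 CPM in the controls and at 11.6, 15.4 and 13.4 CPM after busulfan (-1.04 ± 0.19, adjusted p = 0.141, edgeR). Its groups did not overlap, which a rule that named it required. Ppbp, another platelet chemokine, was at 1.63, 19.5 and 5.47 CPM against 2.26, 0.679 and 1.10 CPM, so busulfan 1 lay above control 1. Gp9, a subunit of the receptor for von Willebrand factor, was at 0.856, 7.75 and 2.38 CPM against 0.261, 0.509 and 0.677 CPM. The 2 controls rich in atrial transcripts held the highest values of all 3 genes. The list's median was -0.79 with the atrial score as a covariate, where 1 gene was lower, -0.23 in busulfan 3 over control 1, and -0.90 without control 2. Summed over the listed genes, the level was 38.9, 174 and 74.7 CPM in the controls and 27.6, 32 and 29.8 CPM after busulfan.

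Red cell genes followed the same libraries. Of 12 tested, 3 were lower (25%, beside 5.78% of all genes) and 0 higher, with a median of -0.94. Hba-a1, an alpha globin gene, stood at 3108 CPM in control 1 and at 6668 and 12057 CPM in control 2 and 3, against 4348, 2387 and 2911 CPM after busulfan, and its near copy Hba-a2 can share its reads. Alas2, the heme synthesis enzyme of red cells, stood at 40.1, 90.0 and 142 CPM against 55.4, 32.8 and 35.9 CPM (-1.13 ± 0.48, adjusted p = 0.426, edgeR). The groups overlapped in both genes. The median was -0.45 with the atrial score as a covariate and -0.03 in busulfan 3 over control 1. White cell genes of the blood were near the limit of these libraries, with 4 of 14 neutrophil, 7 of 19 T and NK cell and 6 of 14 B cell markers tested and 1 of these 17 at an unadjusted p under 0.05. That gene was Cd4, at 0.257, 0.456 and 0.714 CPM in the controls and 1.04, 1.53 and 0.677 CPM after busulfan.

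Resident macrophage markers stood lower, with Cd163 as the clearest member. Of 19 tested, 8 were lower (42.1%) and 1 higher (5.26%) at an unadjusted p under 0.05, with a median of -0.53. Of all genes 5.78% were lower and 5.54% higher. Cd163, the haemoglobin scavenger receptor, was at 17.8, 20.1 and 17.1 CPM in the controls and at 4.18, 3.05 and 6.68 CPM after busulfan (-1.98 ± 0.45, adjusted p = 0.229, edgeR). Its log2 ratio in busulfan 3 over control 1 was -1.35. Timd4, a receptor for dying cells on long-lived resident macrophages, was at 4.79, 8.28 and 8.17 CPM against 3.05, 2.72 and 3.64 CPM (-1.18 ± 0.30, adjusted p = 0.246, edgeR). Lyve1, a hyaluronan receptor that lymphatic vessels share, was at 17.5, 38.8 and 21.9 CPM against 10.7, 11.2 and 17.4 CPM (-0.99 ± 0.32, adjusted p = 0.336, edgeR), and its ratio in busulfan 3 over control 1 was 0.00 on the log2 scale. The list's median was -0.44 with the atrial score as a covariate and -0.08 in busulfan 3 over control 1. With that covariate 1 was lower, or 3 with the linear atrial sum, beside 2.46% and 3.4% of all genes. The list summed to 989, 971 and 1337 CPM in the controls and to 632, 880 and 752 CPM after busulfan.

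Antigen presentation genes of MHC class II stood lower both with and without the atrial score in the fit. Of 9 tested, 4 were lower (44.4%, beside 5.78% of all genes) and 0 higher, with a median of -0.52. It was -0.72 with the atrial score as a covariate, where 5 were lower, and -0.49 with the linear atrial sum, where 2 were lower. In these fits 2.46% and 3.4% of all genes were lower. The median was -0.55 in busulfan 3 over control 1, where 8 of 9 were below 0. H2-Aa, the alpha chain of the class II molecule, stood at 134, 91.6 and 140 CPM in the controls and at 65.3, 62.8 and 65.0 CPM after busulfan (-0.92 ± 0.22, adjusted p = 0.239, edgeR). Cd74, the invariant chain, stood at 271, 221 and 288 CPM against 190, 170 and 185 CPM (-0.52 ± 0.19, adjusted p = 0.356, edgeR). Both were without overlap, as were 6.38% of all genes on the lower side. The list summed to 539, 424 and 552 CPM in the controls and to 335, 308 and 337 CPM after busulfan. In the FMT libraries, which also had busulfan, the sum ran from 448 to 782 CPM, above every library of busulfan alone.

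Complement genes, many made by fibroblasts and macrophages, gave 12 lower and 0 higher of 23, or 52.2% lower beside 5.78% of all genes. Their median was -0.49. It was -0.36 with the atrial score as a covariate and -0.05 in busulfan 3 over control 1. With that covariate 1 was lower, beside 2.46% of all genes. C7, of the membrane attack complex, was at 71.6, 66.1 and 70.9 CPM in the controls and at 30.3, 35.2 and 46.2 CPM after busulfan (-0.90 ± 0.30, adjusted p = 0.341, edgeR). C1qa, a chain of C1q, was at 128, 113 and 159 CPM against 77.5, 112 and 80.2 CPM (-0.57 ± 0.20, adjusted p = 0.344, edgeR). Interferon-stimulated genes gave 3 lower (12.5%) and 0 higher of 24, with a median of -0.06. It was -0.23 with the atrial score as a covariate, and -0.69 in busulfan 3 over control 1, where 24 of 24 lay below 0. Their direction hung on single libraries: the median was -0.36 without busulfan 2 and 0.12 without busulfan 3. Among 21 cytokines and chemokines 4 were lower (19%) and 1 higher (4.76%), beside 5.78% and 5.54% of all genes.

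Fibroblast markers stood lower, and less so once the atrial score was in the fit. Of 18 tested, 9 were lower (50%, beside 5.78% of all genes) and 0 higher, with a median of -0.57. It was -0.13 with the atrial score as a covariate and 0.01 in busulfan 3 over control 1. Dcn, which codes for decorin, was at 1429, 1570 and 2432 CPM in the controls and at 902, 1069 and 1235 CPM after busulfan (-0.76 ± 0.23, adjusted p = 0.295, edgeR). Dpep1, a membrane dipeptidase, was at 118, 142 and 145 CPM against 53.5, 54.1 and 73.2 CPM (-1.16 ± 0.22, adjusted p = 0.141, edgeR), and its log2 ratio in busulfan 3 over control 1 was -0.68. Col1a1, the main fibrillar collagen chain, was at 160, 315 and 250 CPM against 223, 256 and 250 CPM, with a log2 fold change of 0.01 ± 0.29 whose sign differed between fits. Mesothelial markers, of the heart's surface layer, had a median of -2.18 over 12 genes with 0 at an unadjusted p under 0.05. That median was 0.03 without control 2, whose summed level of 213 CPM compares with 15.8 and 46.5 CPM in the other controls and 16.5 to 43.9 CPM after busulfan.

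**Figure D4:**
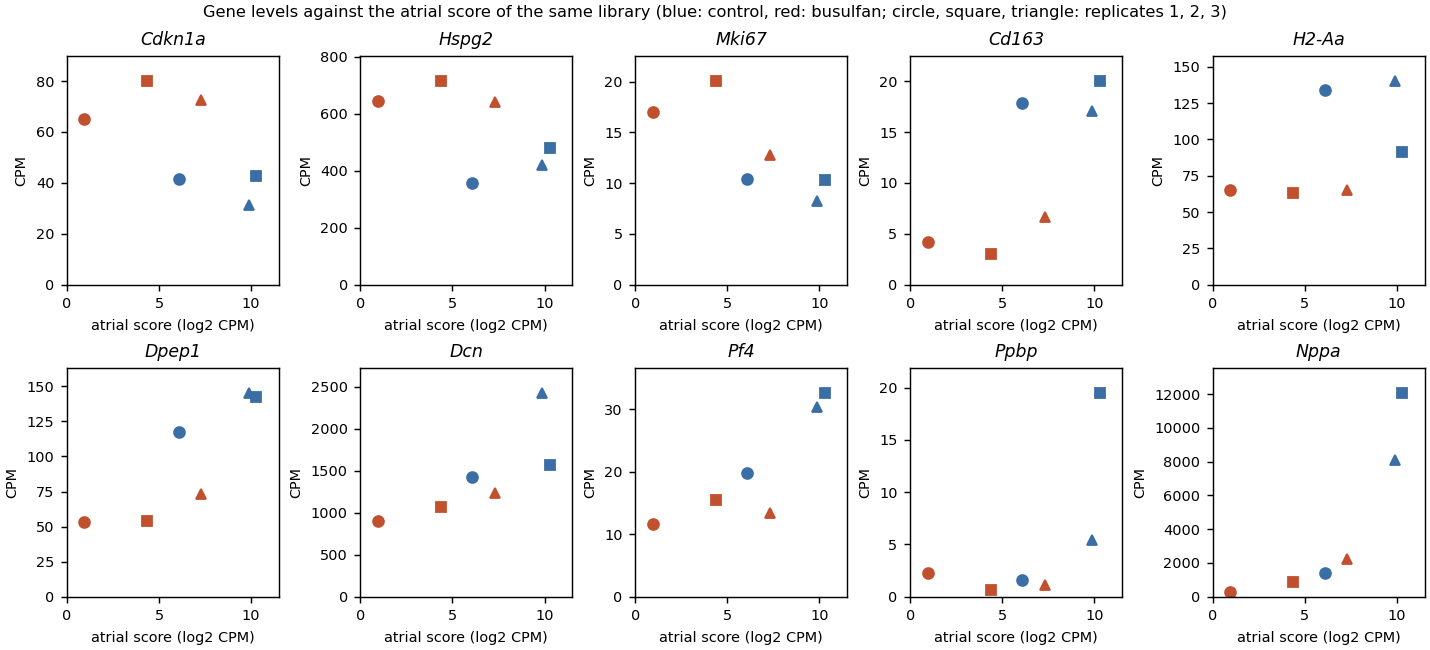
CPM of 10 genes (linear axes from 0) against the atrial score of the same library (mean log2 CPM of 4 atrial genes), 1 point for each of the 6 libraries. The busulfan libraries lie above all controls in Cdkn1a and below all controls in H2-Aa, while Ppbp and Nppa are highest in the 2 controls with scores of 10.3 and 9.88.

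Sarcomere, calcium handling and ion channel genes past the unadjusted threshold were all higher. Of 24 sarcomere genes 3 were higher (12.5%, beside 5.54% of all genes) and 0 lower. Their median of 0.20 was 0.04 with the atrial score as a covariate and 0.00 in busulfan 3 over control 1. Myh7, the slow myosin heavy chain that rises in stressed mouse hearts, stood at 3369, 2004 and 1998 CPM in the controls and at 3427, 4393 and 3112 CPM after busulfan (0.57 ± 0.21, adjusted p = 0.355, edgeR), so the groups overlapped. Nppb, the natriuretic peptide of stretched ventricles, was at 234, 432 and 313 CPM against 211, 243 and 321 CPM (-0.34 ± 0.27, adjusted p = 0.686, edgeR), and its sign differed between fits. Kcne1, a subunit of a potassium channel, was at 4.88, 3.11 and 1.82 CPM against 8.44, 14.3 and 7.19 CPM (1.61 ± 0.35, adjusted p = 0.203, edgeR). Calcium handling and ion channel genes gave 3 higher (11.1%, beside 5.54% of all genes) and 0 lower of 27. Their median was 0.06, or 0.04 with the atrial score and 0.14 in busulfan 3 over control 1.

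Energy metabolism genes gave few values past the unadjusted threshold. Of 75 oxidative phosphorylation genes 0 were at an unadjusted p under 0.05 in either direction, with a median of 0.02. The median was -0.21 with the atrial score as a covariate, -0.44 in busulfan 3 over control 1, where 74 of 75 lay below 0, and 0.12 with GC and length trends removed, where 5 were higher. It was -0.16 without control 2 and 0.21 without control 1, so single controls set its sign. Fatty acid oxidation gave 1 higher of 29 (3.45%, beside 5.54% of all genes). Its median was 0.10, or -0.11 with the atrial score and -0.08 in busulfan 3 over control 1. Glycolysis gave 1 higher of 22 (4.55%), the called Pfkp. Its sister isoform Pfkl, of the liver type, was at 192, 155 and 155 CPM in the controls and at 259, 197 and 193 CPM after busulfan (0.37 ± 0.19, adjusted p = 0.488, edgeR). Cytosolic ribosomal protein genes had a median of -0.32, with 14 lower (18.4%, beside 5.78% of all genes) and 0 higher of 76. With the log2 atrial score as a covariate it was -0.36, with 3 lower. With the linear atrial sum it was -0.28, with 1 lower. In busulfan 3 over control 1, 76 of 76 lay below 0. The transcripts of both lists are short, with medians of 875 bases for oxidative phosphorylation and 941.5 for ribosomal proteins, and short transcripts stood lower in that pair. With GC and length trends removed the ribosomal median was -0.17, with 11 lower. Summed, they made 37227, 21613 and 35965 CPM in the controls and 26105, 28083 and 23387 CPM after busulfan, so control 2 lay below every busulfan library. Without control 2 the median was -0.54.

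Heat shock chaperones had 9 of 17 members above 0 and 8 below. At an unadjusted p under 0.05, 1 was higher (5.88%) and 5 lower (29.4%), beside 5.54% and 5.78% of all genes. Their median was 0.00, or -0.11 with the atrial score and -0.22 in busulfan 3 over control 1. The gene on the higher side was Hspb7, a small heat shock protein of heart muscle, at 3791, 3016 and 2389 CPM in the controls and 4030, 4173 and 4508 CPM after busulfan (0.47 ± 0.20, adjusted p = 0.410, edgeR). The heat shock genes Hspa1a and Hspa1b, near copies of each other whose reads cannot be assigned safely, stood at 19.7, 14.3 and 23.7 CPM and at 63.3, 32.1 and 62.5 CPM in the controls. After busulfan they stood at 1.57, 1.87 and 5.33 CPM and at 5.31, 5.85 and 16.2 CPM, with an adjusted p of 0.341 for both (edgeR). Dnajb1, a co-chaperone, was at 35.1, 29.9 and 35.6 CPM against 21.7, 15.9 and 23.8 CPM (-0.71 ± 0.21, adjusted p = 0.292, edgeR). Of 19 clock genes 1 was higher (5.26%) and 3 lower (15.8%). Their median was -0.11, or -0.03 with the atrial score and 0.07 in busulfan 3 over control 1. Nr1d1, the clock repressor REV-ERB alpha, was at 38.5, 67.9 and 52.0 CPM against 80.8, 108 and 144 CPM (1.07 ± 0.31, adjusted p = 0.294, edgeR). It was the 1 gene called with the log2 atrial score as a covariate, at 1.71 (adjusted p = 0.0164, edgeR). Per2, a repressor of the clock, was at 3.94, 4.25 and 3.89 CPM against 3.48, 1.27 and 1.78 CPM (-0.89 ± 0.36, adjusted p = 0.394, edgeR). The time of day of collection is not in the labels.

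**Figure D5:**
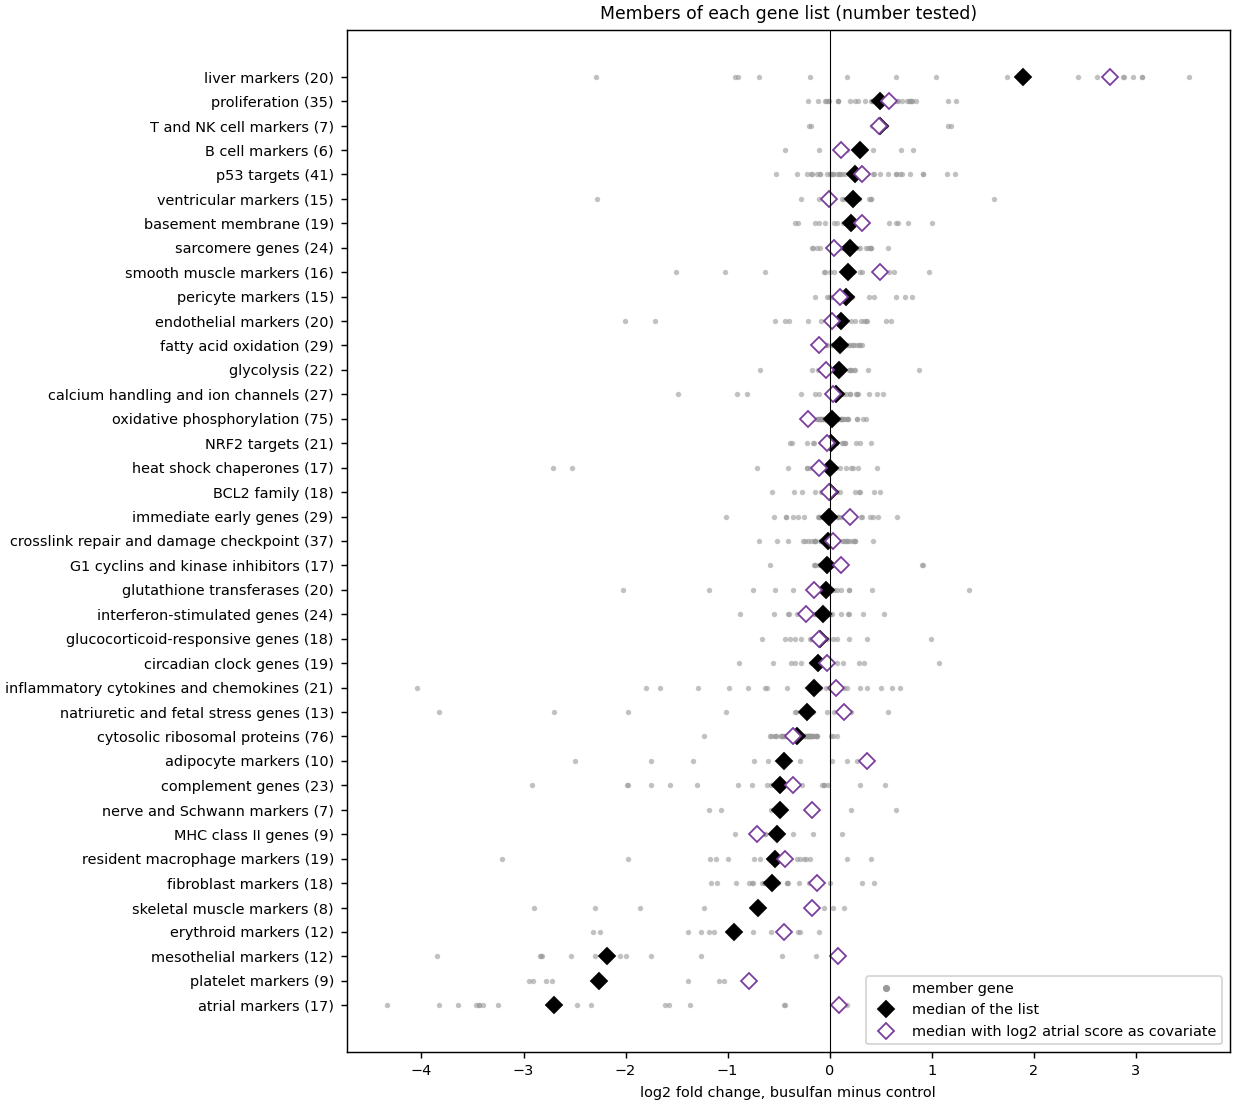
Log2 fold changes of busulfan minus control for the members of each gene list with at least 6 tested members (grey points), the list's median (filled diamond) and its median with the log2 atrial score as a covariate (open diamond). The covariate brings the mesothelial median from -2.18 to 0.08, while the MHC class II median goes from -0.52 to -0.72. The atrial median goes from -2.70 to 0.09, but that list holds the genes of the score, so its move says nothing further.

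Several liver transcripts stood higher after busulfan, while the summed level of the liver list overlapped between the groups. Alb, the albumin gene, stood at 2.40, 1.14 and 0.555 CPM in the controls and at 10.8, 9.33 and 11.7 CPM after busulfan (2.97 ± 1.35, adjusted p = 0.458, edgeR). Apoa2 stood at 0.0856, 0.380 and 0.0793 CPM against 1.65, 2.88 and 2.20 CPM. Neither gene overlapped between the groups, as in 7.74% of all genes on the higher side. Of 20 liver markers 2 were higher and 2 lower at an unadjusted p under 0.05, 10% each way. Of all genes 5.54% were higher and 5.78% lower. The list's median was 1.89, and none of its genes was at 0 in all 6 libraries. The median was 2.75 with the atrial score and 1.09 in busulfan 3 over control 1. The 2 lower were Trf, the transferrin gene, at 49.3, 90.9 and 55.5 CPM against 30.5, 39.6 and 51.2 CPM (-0.69 ± 0.28), and Hp, the haptoglobin gene, at 2.82, 3.72 and 4.44 CPM against 1.57, 1.87 and 2.45 CPM (-0.90 ± 0.37), both with an adjusted p of 0.396 (edgeR). The list summed to 66.2, 167 and 110 CPM in the controls and to 72.6, 83.6 and 106 CPM after busulfan. With a liver score as a covariate, the mean log2(CPM + 0.5) of 5 liver genes, 0 genes were called by edgeR, with 438 higher and 345 lower at an unadjusted p under 0.05. That score was 0.686, 0.782 and 0.383 in the controls and 2.09, 2.29 and 2.24 after busulfan. The groups did not overlap in it, so in these 6 libraries it cannot be told apart from treatment. The 8 genes called without it kept log2 fold changes from 0.70 for Rhbdf2 to 1.03 for Papln in that fit. Where these transcripts come from was not tested.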

How the data were processed

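Heart RNA libraries of 4 groups of 3 were used as deposited. Per the file headers, the authors deposited estimated counts per gene. TPM and FPKM values were deposited beside them, and TPM and FPKM entered no test. Tests used the estimated counts, rounded to whole numbers (94.7% to 95.3% were whole within 1e-09). Per the submitters' processing notes, Bowtie 0.12.2 and mm10 were used. How reads were counted, on which annotation and with which strand setting is not given in the sources used here. Of 17536 gene IDs, 17487 matched RefSeq genes of GRCm38.p6.

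Counts were filtered with filterByExpr, scaled by TMM and fitted with edgeR 4.0.16 (R 4.3.3, robust quasi-likelihood, 12 libraries, group as the only term). Every p is two-sided. The common biological coefficient of variation was 18.6%. The procedure was also run on simulated counts with known fold changes. These held no atrial, GC or length difference between the groups, so that run does not bear on such differences. DESeq2 1.42.0, limma-voom (limma 3.58.1), other scalings and filters, covariates and left-out libraries were alternatives. Replicate libraries of a group differed far beyond counting noise.

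The genes named are the called ones, the 10 uncalled genes of smallest p in each direction without overlap and with a mean of at least 5 CPM, up to 4 members of smallest p from each of 41 lists with at least 1 CPM, and a set of fixed genes, without predicted genes or pseudogenes. The gene lists and members were chosen with earlier results of these data known.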

Additional observations from a re-analysis of the deposited data

How the results depend on the processing

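The 8 calls depended on the fit. Other settings called 0 genes with library size alone (604 higher and 838 lower at an unadjusted p under 0.05), 5 with a mean CPM of at least 1, 5 with limma-voom, 5 without robust shrinkage and 119 with DESeq2. As a covariate the log2 atrial score gave 1 call. The linear atrial sum gave 0, with 616 higher and 459 lower at an unadjusted p under 0.05. The log2 liver score, in which the groups compared did not overlap, gave 0, with 438 and 345. With the 6 libraries alone 0 were called, and with GC and length trends removed 3. Relative log expression size factors gave 7 calls and no filter gave 8. Leaving out 1 library at a time gave 0 to 14 calls, with 0 without control 3, busulfan 1, busulfan 2 or control-FMT 1. With the replicate number as a block, 10 genes were called, 8 higher and 2 lower, among them all 8. The numbers do not pair the samples: same-numbered control and busulfan libraries had correlations of deviations of 0.475, -0.154 and 0.101, and control 2 correlated best with busulfan 3, at 0.472. Of the 183 genes named by the rule, 22 changed direction under some setting, and none of them was called. With 3 libraries a group and a median standard error of 0.163 on the log2 scale, small differences were not detectable. DESeq2's calls exceeded those of edgeR, and the cause was not tested.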

Other observations

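Of the 10 uncalled genes of smallest p without overlap on the higher side, Eda2r, Hspg2 and Lama5 were described above. Prag1, Itprip, Micall2 and Fndc1 had an adjusted p from 0.141 to 0.171 (edgeR). The last 3 follow. Nes, the intermediate filament nestin, stood at 56.5, 47.2 and 52.6 CPM in the controls and at 90.8, 91.7 and 66.1 CPM after busulfan (0.67 ± 0.13, adjusted p = 0.164, edgeR). Pcdh1, a protocadherin, stood at 31.8, 28.5 and 28.9 CPM against 46.7, 49.0 and 43.4 CPM (0.64 ± 0.13, adjusted p = 0.164, edgeR). Myo1d, an unconventional myosin, stood at 14, 15.0 and 15.6 CPM against 25.5, 22.5 and 20.6 CPM (0.62 ± 0.13, adjusted p = 0.171, edgeR). In busulfan 3 over control 1 their log2 ratios were 0.23, 0.44 and 0.54.

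On the lower side Aldh1a2, which makes retinoic acid, stood at 7.45, 15.3 and 8.49 CPM in the controls and at 5.14, 5.26 and 4.06 CPM after busulfan (-1.11 ± 0.25, adjusted p = 0.229, edgeR). Bbs2, a subunit of the cilium-trafficking BBSome, stood at 12.3, 15.1 and 14.8 CPM against 8.44, 5.26 and 8.54 CPM (-0.93 ± 0.18, adjusted p = 0.164, edgeR). Tsc22d3, the glucocorticoid-induced leucine zipper, stood at 93.6, 85.5 and 88.6 CPM against 67.0, 63.5 and 67.1 CPM (-0.44 ± 0.14, adjusted p = 0.313, edgeR). Aldh1a2 and Bbs2 were named by a rule that required no overlap between the groups. Tsc22d3 did not overlap either, as in 6.38% of all genes on the lower side.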
